A study of Mus musculus with 4 samples.

Results

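The genes examined here mark macrophages and monocytes in 4T1Ch9 tumors, a cherry-tagged mouse TNBC line of Balb/c background that was grown from 50000 cells injected into the mammary fat pad. Of 42 listed genes, 41 were measured, out of 17097 genes with a probe set of their own on the array. Spp1 was not analysed here. A gene was represented by the probe set that carries its symbol alone and has the highest mean over the arrays. Tumors grew for 10 days, after which mice received trametinib, an inhibitor of the kinases MEK1 and MEK2 (MEKi, 1 mg/kg daily), or vehicle for 7 days. Bulk tumor RNA was hybridized to 2 Affymetrix MG-430PM arrays for MEKi and 2 for vehicle. Values are log2 expression after RMA, a method that corrects background, normalizes arrays and summarizes the probes of each set. Neither labels nor methods state that different mice supplied the arrays of a label. The p-values therefore reflect array-to-array spread alone, and that spread may be technical.

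Macrophages take up and digest microbes, dead cells and lipoproteins, and in tumors they derive largely from blood monocytes. Many of their activating receptors have no signaling tail of their own and work through small adaptor proteins that carry an ITAM, a tyrosine motif that recruits the kinase Syk. In the mouse, IL-4 and IL-13 act through the transcription factor STAT6 on genes such as Arg1, Retnla, Chil3, Mrc1 and Mgl2, often called the alternatively activated program. Interferon and bacterial products instead turn on Nos2. Tumor macrophages are frequently described along this axis.

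The arrays did not sort by their labels, so each one is named here as it was labelled. Over 45037 probe sets, Pearson's r was 0.992 between MEKi 1 and vehicle 2 and 0.978 between MEKi 2 and vehicle 1, but 0.927 between the arrays labelled MEKi and 0.959 between those labelled vehicle. These are correlations across probe sets, which are not independent replicates. Lymphoid genes showed the same division. Across 8 B cell genes the median lay at 9.73 in MEKi 1 and 4.18 in MEKi 2, against 4.17 in vehicle 1 and 9.39 in vehicle 2. For 9 T cell genes it was 10.11 in MEKi 1 and 6.02 in MEKi 2, against 6.72 in vehicle 1 and 10.07 in vehicle 2. For 6 genes of lymph node stroma and vessels it was 8.82 in MEKi 1 and 3.83 in MEKi 2, against 3.84 in vehicle 1 and 9.16 in vehicle 2. Of 9 epithelial genes, 8 lay above the array median in every array, and Krt19 was under it in MEKi 2. No label was changed.

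Macrophage genes stood highest in the array labelled vehicle 1. Their median log2 expression was 8.68 in MEKi 1 and 9.35 in MEKi 2, against 10.22 in vehicle 1 and 9.61 in vehicle 2. Of the 41 genes, 36 lay above the median of all probe sets in each of the 4 arrays, and the exceptions were Marco, Vsig4, Siglec1, Nos2 and Cd209a. Reading each gene by its probe set with the highest mean favors such a count, as it does for the epithelial genes above. The share of all genes above that median was not counted. Vehicle 1 held the highest value for 31 of 41 genes, where it did so for 20.1% of 17097 genes, and MEKi 1 held the lowest value for 22 of 41 (30% of all genes). The spread between the highest and the lowest array ran from 0.17 (Nos2) to 3.75 (Retnla), with a median of 1.41. In this bulk RNA, fewer macrophages, less RNA per macrophage and a larger share of RNA from other cells cannot be told apart. The part of lymphoid cells in the macrophage values was not tested.

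**Figure D1:**
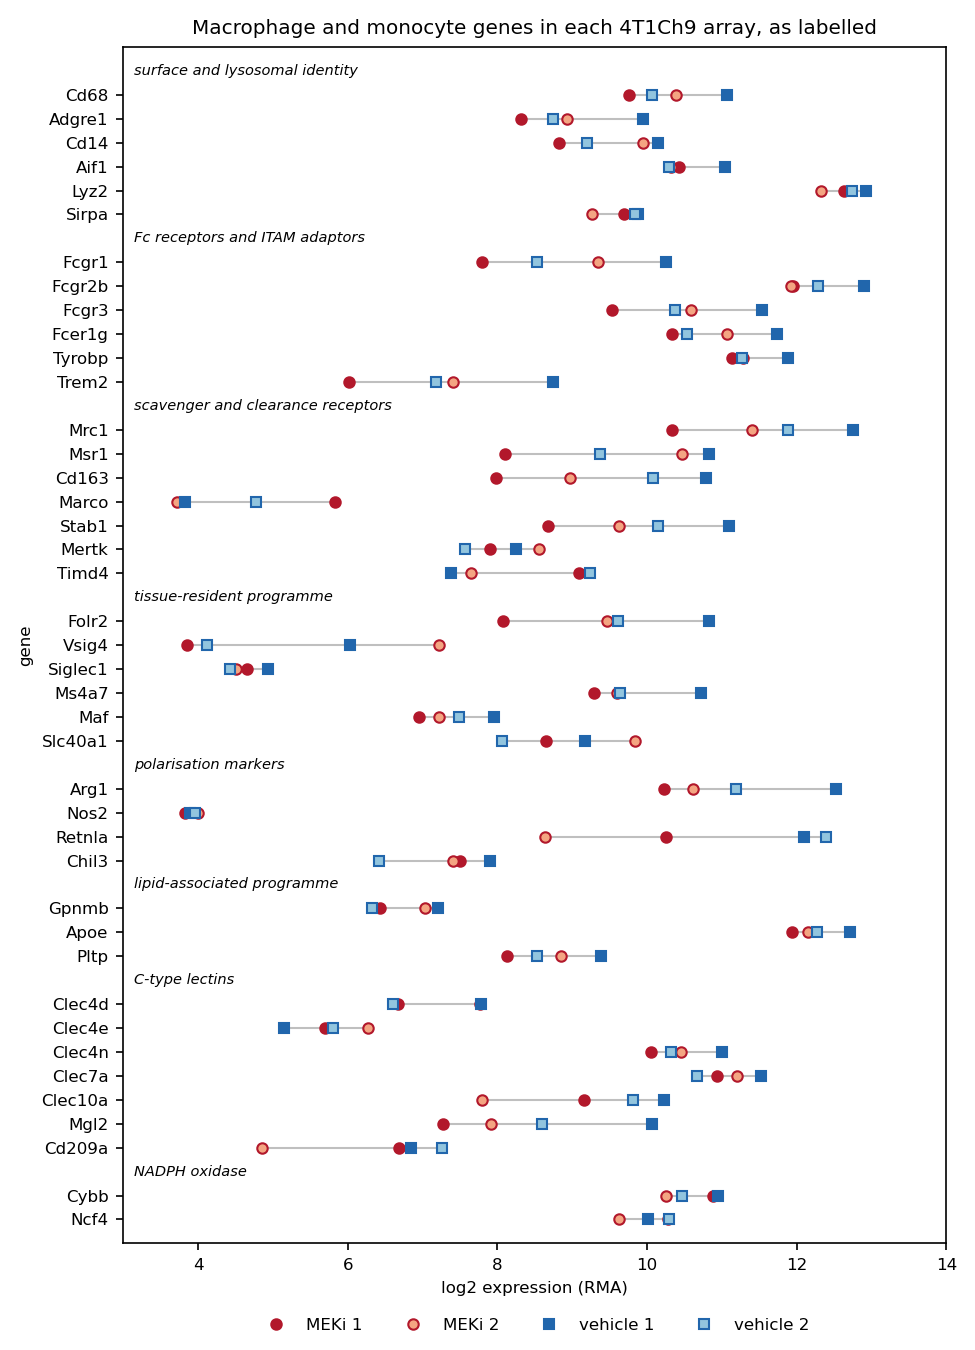
Log2 expression (RMA, horizontal axis) of the 41 measured macrophage and monocyte genes (vertical axis, by role), with 1 point per array. MEKi arrays are circles and vehicle arrays squares, as labelled. Dark blue squares (vehicle 1) lie furthest right for 31 genes, and Retnla spans the widest range, 3.75.

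By label, macrophage genes leaned lower in the MEKi arrays, but no single gene passed the test. The log2 difference (MEKi minus vehicle) was below 0 for 33 of 41 genes, where 47.8% of 17097 genes were below 0. This count was 30 without MEKi 1, 34 without MEKi 2, 25 without vehicle 1 and 36 without vehicle 2. The median difference was −0.43, against 0.01 for all genes. A lean below 0 was not particular to macrophage genes. It held for 9 of 9 tumor epithelial genes (median −1.10), 9 of 9 T cell genes (−0.59) and 5 of 5 endothelial genes (−0.24). Of 8 B cell genes 6 were above 0, and of 11 neutrophil genes 9. With limma (two-sided, Benjamini-Hochberg over 45037 probe sets) 0 of the 41 were called, as were 0% of all probe sets. A call needed an unadjusted p below 0.05, an adjusted p below 0.1 and more than a 1.5-fold change. At an unadjusted p under 0.05 there were 3 of the 41, namely Retnla, Cd163 and Mgl2, where 0.901% of all probe sets reached it. The lowest adjusted p was 1, and the standard errors of the differences ran from 0.17 to 1.42.

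The order of the arrays was also counted. In 15 of 41 genes both MEKi arrays lay below both vehicle arrays, and in 0 of 41 both lay above. Among 17097 genes 10.2% were lower in this way and 11% higher. Both the median and this count moved with single arrays, and the median came nearest 0 without vehicle 1. The median difference was −0.37 without MEKi 1, −0.64 without MEKi 2, −0.09 without vehicle 1 and −0.75 without vehicle 2. With 1 array fewer the groups separate more easily, and the count of lower genes was then 18 without MEKi 1, 28 without MEKi 2, 17 without vehicle 1 and 33 without vehicle 2. The count of higher genes was 5 without MEKi 1, 1 without MEKi 2, 8 without vehicle 1 and 2 without vehicle 2. Some tumor epithelial, fibroblast and endothelial genes showed this order too. Both MEKi arrays lay below both vehicle arrays in 5 of 9 epithelial genes, whose median was 8.19 in MEKi 1 and 6.54 in MEKi 2, against 8.79 in vehicle 1 and 8.50 in vehicle 2. The same held for 3 of 7 fibroblast genes, with 1 higher in both MEKi arrays, and their median was 9.06 in MEKi 1 and 8.49 in MEKi 2, against 10.09 in vehicle 1 and 9.55 in vehicle 2. It also held for 2 of 5 endothelial genes, for Kdr with MEKi 1 minus vehicle 1 at only −0.0007. The endothelial median was 7.98 in MEKi 1 and 8.99 in MEKi 2, against 9.10 in vehicle 1 and 8.33 in vehicle 2. The part of these cells in the macrophage result was not tested.

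**Figure D2:**
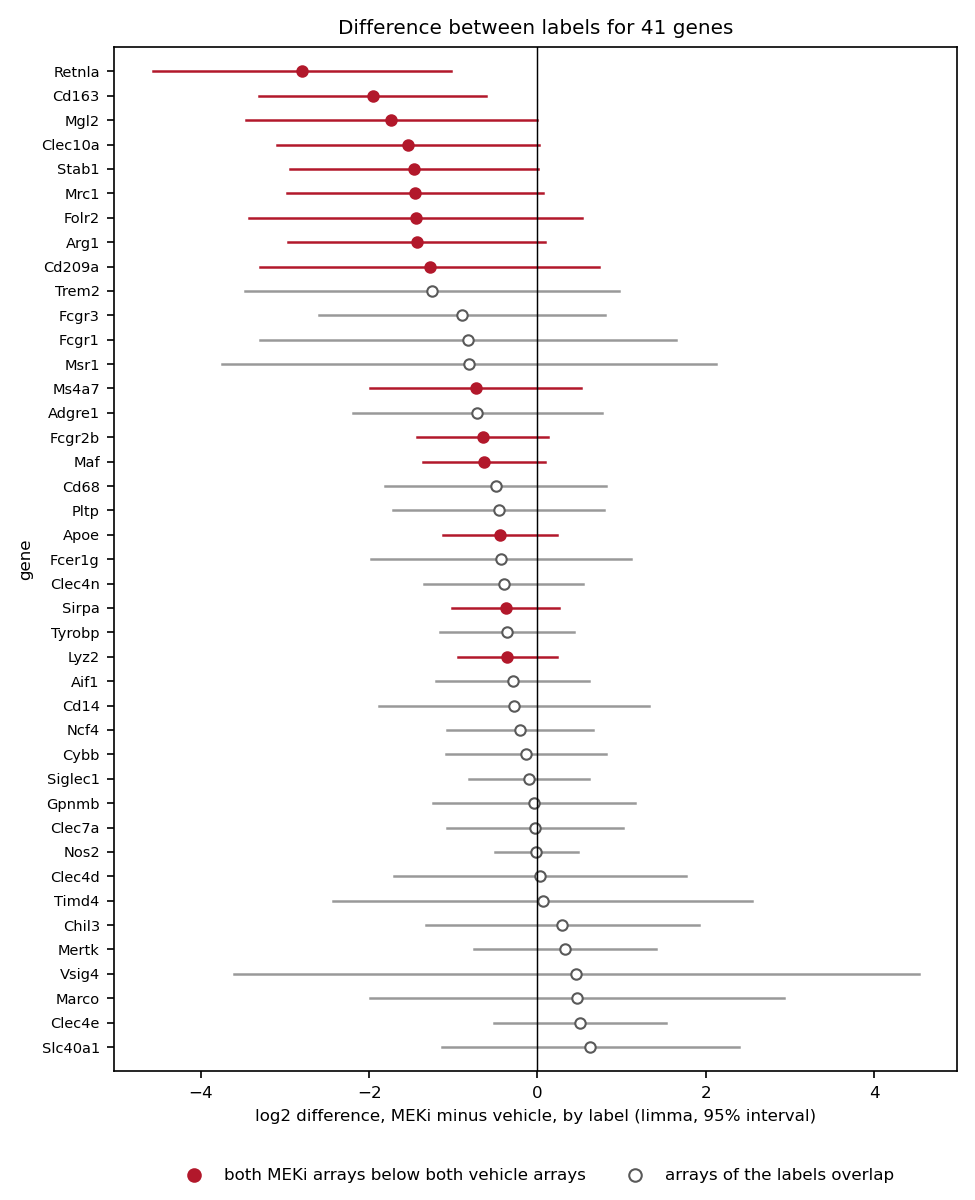
Log2 difference between labels (MEKi minus vehicle, horizontal axis) with its 95% interval from limma, for 41 genes ordered by difference on the vertical axis. Filled red points are the 15 genes whose MEKi arrays both lay below both vehicle arrays, and they include the 9 most negative differences, from −2.80 (Retnla) to −1.28 (Cd209a).

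The 9 genes with the most negative differences all belonged to those 15, and they include Arg1, Retnla, Mrc1 and Mgl2 of the alternatively activated program. Each of the 9 had an adjusted p of 1 by limma. Chil3 of the same program was not among them, with a difference of 0.30 (SE 0.57). Retnla, which encodes the secreted protein RELMα, read 10.25 in MEKi 1 and 8.64 in MEKi 2, against 12.10 in vehicle 1 and 12.39 in vehicle 2. The vehicle arrays lay close together, and the MEKi arrays lay below both and apart from each other. Its difference was −2.80 (SE 0.62, 95% interval −4.57 to −1.03, unadjusted p = 0.0125 and adjusted p = 1 by limma), or 6.96-fold lower in MEKi. It was 12.2-fold lower without MEKi 1 and 3.98-fold lower without MEKi 2. Cd163, the scavenger receptor for hemoglobin bound to haptoglobin, read 7.98 in MEKi 1 and 8.97 in MEKi 2, against 10.78 in vehicle 1 and 10.08 in vehicle 2. All 4 arrays were above the array median, and the nearest arrays of the labels, MEKi 2 and vehicle 2, differed by −1.11. Its difference was −1.96 (SE 0.47, 95% interval −3.30 to −0.61, adjusted p = 1 by limma).

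Mrc1, the mannose receptor, read 10.33 in MEKi 1 and 11.41 in MEKi 2, against 12.76 in vehicle 1 and 11.89 in vehicle 2, a difference of −1.45 (SE 0.53). Stab1, which encodes the scavenger receptor stabilin-1 and is also expressed by sinusoidal endothelium, read 8.68 in MEKi 1 and 9.63 in MEKi 2, against 11.09 in vehicle 1 and 10.15 in vehicle 2, a difference of −1.46 (SE 0.52). These receptors and Cd163 shared an order, with vehicle 1 highest, then vehicle 2, MEKi 2 and MEKi 1, an order found in 9 of 41 genes. Arg1, which encodes arginase 1, had it as well, at 10.23 in MEKi 1 and 10.61 in MEKi 2, against 12.53 in vehicle 1 and 11.18 in vehicle 2, a difference of −1.44 (SE 0.54). Folr2, the folate receptor β of tissue-resident macrophages, read 8.08 in MEKi 1 and 9.47 in MEKi 2, against 10.83 in vehicle 1 and 9.61 in vehicle 2. Its groups were separated narrowly, with MEKi 2 minus vehicle 2 at −0.14.

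Clec10a, Mgl2 and Cd209a, C-type lectins shared by macrophages and some dendritic cells, completed the 9. Mgl2, a galactose-type lectin, read 7.28 in MEKi 1 and 7.91 in MEKi 2, against 10.06 in vehicle 1 and 8.60 in vehicle 2, a difference of −1.74 (SE 0.61). Its close relative Clec10a read 9.16 in MEKi 1 and 7.80 in MEKi 2, against 10.22 in vehicle 1 and 9.81 in vehicle 2, a difference of −1.54 (SE 0.55). The lowest array was thus MEKi 1 for Mgl2 and MEKi 2 for Clec10a. Since these genes are related in sequence, cross-hybridization between them is possible. Cd209a, a mouse relative of DC-SIGN, read 6.69 in MEKi 1 and 4.85 in MEKi 2, against 6.84 in vehicle 1 and 7.26 in vehicle 2, so only MEKi 2 stood clearly apart. Retnla, Clec10a and Cd209a had their lowest value in MEKi 2. The size of these differences moved with single arrays. With each array left out in turn, the difference ran between −2.45 and −1.46 for Cd163, −2.47 and −1.002 for Mgl2, −2.22 and −0.86 for Clec10a, and −2.20 and −0.36 for Cd209a. It ran between −1.99 and −0.91 for Mrc1, −1.94 and −0.99 for Stab1, −2.14 and −0.75 for Folr2, and −2.11 and −0.76 for Arg1. The value nearest 0 came without MEKi 2 for Clec10a and Cd209a, without vehicle 1 for Mgl2 and Arg1, and without MEKi 1 for Cd163, Mrc1, Stab1 and Folr2.

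Promoter sequence of these genes is shown because PU.1, the transcription factor encoded by Spi1, acts on much of the macrophage program through a purine-rich core, GAGGAA. Windows of 250 bases before the gene start (RefSeq, GRCm38.p6) were found for 28 of the 41 measured genes. The core, on either strand, occurred in 55.9% of the 34 windows of these genes and in 23.3% of all 32851 windows. The 16 genes with a match were Aif1, Apoe, Cd68, Clec4d, Clec4e, Clec7a, Fcgr1, Fcgr3, Marco, Mgl2, Mrc1, Pltp, Retnla, Stab1, Trem2 and Vsig4, so a match was not limited to genes lower in both MEKi arrays. Of the lower genes, 11 had a window and 5 a match, where 16 of all 28 genes with a window had a match. The STAT6 motif, TTC and GAA spaced by 4 bases, occurred in windows of 3 genes (11.8% of their windows, 5.85% of all), Clec7a, Ms4a7 and Retnla. The AP-1 motif TGANTCA, a site for Fos and Jun proteins, occurred in windows of 5 genes (14.7% of windows, 6.75% of all), and the C/EBP motif TTGCNNAA in windows of 5 genes (17.6% of windows, 9.56% of all). A match describes letters only. The stretches below were chosen from genes lower in both MEKi arrays. They run 5′ to 3′ on the strand of the gene. Capitals mark matches to the PU.1 core in either orientation (GAGGAA or TTCCTC) and, in Retnla, also to the STAT6 and C/EBP motifs.
Retnla (chr16:48842398-48842497, + strand): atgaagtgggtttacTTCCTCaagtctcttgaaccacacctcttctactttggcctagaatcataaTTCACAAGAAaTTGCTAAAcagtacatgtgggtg
Mrc1 (chr2:14229219-14229399, + strand): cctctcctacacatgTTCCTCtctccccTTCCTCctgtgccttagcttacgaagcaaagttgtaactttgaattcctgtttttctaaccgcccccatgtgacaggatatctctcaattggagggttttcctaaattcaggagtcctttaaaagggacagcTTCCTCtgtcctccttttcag
Stab1 (chr14:31168651-31168686, − strand): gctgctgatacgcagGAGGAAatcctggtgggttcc
Mgl2 (chr11:70130117-70130152, + strand): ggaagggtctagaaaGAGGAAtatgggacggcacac
Retnla held 1 match to each of the 3 motifs within 100 bases, with the STAT6 and C/EBP letters next to each other. Mrc1 held 3 matches to the PU.1 core and Stab1 and Mgl2 1 each. Spi1 itself read 8.82 in MEKi 1 and 8.81 in MEKi 2, against 9.31 in vehicle 1 and 9.18 in vehicle 2. The part of PU.1 in the macrophage values was not tested.

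The 6 general macrophage identity genes had a median difference of −0.37. All 6 had their highest value in vehicle 1. Adgre1, which encodes the adhesion receptor used to define mouse macrophages, read 8.32 in MEKi 1 and 8.94 in MEKi 2, against 9.94 in vehicle 1 and 8.75 in vehicle 2, so MEKi 2 lay above vehicle 2 and the groups overlapped. Cd68, a glycoprotein of lysosomes, read 9.76 in MEKi 1 and 10.38 in MEKi 2, against 11.07 in vehicle 1 and 10.07 in vehicle 2. Cd14, the co-receptor for bacterial lipopolysaccharide, read 8.82 in MEKi 1 and 9.95 in MEKi 2, against 10.14 in vehicle 1 and 9.19 in vehicle 2. For Cd68 and Cd14 the sign of the difference changed when vehicle 1 was left out, to 0.0039 and 0.19, and for Cd14 also without MEKi 1, to 0.28. Lyz2, which encodes lysozyme and whose probe set may also read its near copy Lyz1, lay at 12.63 in MEKi 1 and 12.33 in MEKi 2, against 12.93 in vehicle 1 and 12.74 in vehicle 2, a difference of −0.36 (SE 0.20). Sirpa, the inhibitory receptor for CD47, read 9.69 in MEKi 1 and 9.27 in MEKi 2, against 9.88 in vehicle 1 and 9.83 in vehicle 2, a difference of −0.38 (SE 0.22). Both genes were lower in both MEKi arrays by small amounts. The other 2 probe sets of Sirpa overlapped between labels. Aif1, which encodes an actin-binding protein of macrophages, read 10.43 in MEKi 1 and 10.32 in MEKi 2, against 11.04 in vehicle 1 and 10.30 in vehicle 2, so only vehicle 1 stood apart.

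Fc receptors and their adaptors were highest in vehicle 1 for 6 of 6 genes and lowest in MEKi 1 for 5. The median of the group was 9.93 in MEKi 1 and 10.83 in MEKi 2, against 11.64 in vehicle 1 and 10.46 in vehicle 2. Fcgr1, the high-affinity receptor for IgG, read 7.79 in MEKi 1 and 9.35 in MEKi 2, against 10.26 in vehicle 1 and 8.53 in vehicle 2. Fcgr3, an activating low-affinity receptor, read 9.53 in MEKi 1 and 10.59 in MEKi 2, against 11.54 in vehicle 1 and 10.38 in vehicle 2. In both receptors MEKi 2 lay above vehicle 2 and the groups overlapped. The adaptor genes showed the same order with smaller spans. Fcer1g, which encodes the common γ chain with its ITAM, read 10.33 in MEKi 1 and 11.07 in MEKi 2, against 11.74 in vehicle 1 and 10.53 in vehicle 2. Tyrobp, which encodes the ITAM adaptor DAP12, read 11.14 in MEKi 1 and 11.28 in MEKi 2, against 11.88 in vehicle 1 and 11.26 in vehicle 2. Trem2, a lipid-sensing receptor that signals through DAP12, spanned 2.73 and read 6.02 in MEKi 1 and 7.40 in MEKi 2, against 8.74 in vehicle 1 and 7.19 in vehicle 2. Its difference was −1.25 (SE 0.78, adjusted p = 1 by limma), but −0.56 without MEKi 1, −1.95 without MEKi 2, −0.48 without vehicle 1 and −2.03 without vehicle 2. The mean of its probe sets gave −0.86.

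Fcgr2b, the inhibitory IgG receptor, was the exception in this group, with both MEKi arrays below both vehicle arrays. It read 11.95 in MEKi 1 and 11.93 in MEKi 2, against 12.89 in vehicle 1 and 12.29 in vehicle 2, a difference of −0.65 (SE 0.27). Its other 3 probe sets had the same order of groups, with differences between −0.86 and −0.75. B cells also carry this receptor. The part of B cells in the Fcgr2b level was not tested.

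The remaining scavenger and clearance receptors had other orders than Cd163, Mrc1 and Stab1. Msr1, scavenger receptor A, read 8.11 in MEKi 1 and 10.47 in MEKi 2, against 10.82 in vehicle 1 and 9.38 in vehicle 2, and its other 3 probe sets had the same order of arrays. MEKi 2 and vehicle 1 were thus the high arrays for Msr1. Timd4, a receptor for phosphatidylserine on dead cells, was high in the other two arrays, at 9.09 in MEKi 1 and 7.65 in MEKi 2, against 7.39 in vehicle 1 and 9.23 in vehicle 2. Marco, a scavenger receptor of marginal zone and lymph node macrophages, lay at 5.82 in MEKi 1 and 3.71 in MEKi 2, against 3.83 in vehicle 1 and 4.77 in vehicle 2, where MEKi 2 and vehicle 1 were under the 25th percentile of their arrays and thus near the floor. Timd4 and Marco were high in the arrays in which B cell and lymph node genes were high. Mertk, a kinase receptor for dead cells, was highest in MEKi 2, with 7.90 in MEKi 1 and 8.56 in MEKi 2, against 8.24 in vehicle 1 and 7.57 in vehicle 2.

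The tissue-resident macrophage genes were mixed. Beside Folr2, the transcription factor gene Maf and the membrane protein gene Ms4a7 were lower in both MEKi arrays. Maf read 6.95 in MEKi 1 and 7.22 in MEKi 2, against 7.96 in vehicle 1 and 7.49 in vehicle 2, a difference of −0.64 (SE 0.25). Ms4a7 read 9.30 in MEKi 1 and 9.60 in MEKi 2, against 10.72 in vehicle 1 and 9.64 in vehicle 2, with MEKi 2 minus vehicle 2 at −0.05. Vsig4, a complement receptor, went against this order. It read 3.85 in MEKi 1 and 7.22 in MEKi 2, against 6.03 in vehicle 1 and 4.12 in vehicle 2, with MEKi 1 near the floor, and its difference of 0.46 (SE 1.42) had the widest error of the 41 genes. Slc40a1, which encodes the iron exporter ferroportin, was likewise highest in MEKi 2, at 8.65 in MEKi 1 and 9.85 in MEKi 2, against 9.17 in vehicle 1 and 8.06 in vehicle 2. Siglec1, the sialic acid receptor of lymph node and marginal macrophages, stayed under the array median throughout, at 4.66 in MEKi 1 and 4.51 in MEKi 2, against 4.94 in vehicle 1 and 4.43 in vehicle 2. It was the only gene with a further probe set of opposite sign.

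Among the polarization markers, Nos2, which encodes inducible nitric oxide synthase, lay under the median of every array and near the floor in MEKi 1. It read 3.83 in MEKi 1 and 4.00 in MEKi 2, against 3.90 in vehicle 1 and 3.96 in vehicle 2, with a 95% interval of −0.50 to 0.48 for a signal this dim. Chil3, a chitinase-like protein grouped with Arg1 and Retnla in the mouse, did not share their order. It read 7.50 in MEKi 1 and 7.41 in MEKi 2, against 7.90 in vehicle 1 and 6.42 in vehicle 2. Vehicle 1 was the highest array and vehicle 2 the lowest, and the difference was 0.30 (SE 0.57).

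The 3 measured genes of the lipid-associated program were highest in vehicle 1. Apoe, an apolipoprotein secreted by macrophages and other cells, read 11.94 in MEKi 1 and 12.16 in MEKi 2, against 12.71 in vehicle 1 and 12.28 in vehicle 2, and was lower in both MEKi arrays, with a difference of −0.44 (SE 0.24). Pltp, a phospholipid transfer protein, read 8.13 in MEKi 1 and 8.85 in MEKi 2, against 9.38 in vehicle 1 and 8.53 in vehicle 2, which overlapped between labels. Gpnmb, a transmembrane glycoprotein of lipid-laden macrophages, read 6.43 in MEKi 1 and 7.03 in MEKi 2, against 7.21 in vehicle 1 and 6.33 in vehicle 2, with vehicle 1 highest and vehicle 2 lowest. For Gpnmb the difference was −0.04 (SE 0.42), with a 95% interval of −1.24 to 1.16.

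Of the 7 C-type lectins, 3 (Clec10a, Mgl2 and Cd209a, given above) were lower in both MEKi arrays. The other 4, lectins that recognize fungal and mycobacterial glycans, overlapped between labels, as did 78.9% of 17097 genes. Clec4d read 6.68 in MEKi 1 and 7.77 in MEKi 2, against 7.78 in vehicle 1 and 6.60 in vehicle 2. Clec4e, which encodes Mincle and lies beside Clec4d in the same gene cluster, had another order, at 5.70 in MEKi 1 and 6.27 in MEKi 2, against 5.15 in vehicle 1 and 5.81 in vehicle 2. Its dimmer probe set was higher in both MEKi arrays, at 4.10 in MEKi 1 and 4.20 in MEKi 2, against 3.62 in vehicle 1 and 3.87 in vehicle 2. Both vehicle arrays were near the floor there. Vehicle 1 was thus the lowest array for Clec4e, while for Clec4d it lay level with MEKi 2 (MEKi 2 minus vehicle 1 at −0.01). Clec4n, which encodes Dectin-2, read 10.06 in MEKi 1 and 10.46 in MEKi 2, against 11.00 in vehicle 1 and 10.31 in vehicle 2. Clec7a, which encodes Dectin-1, read 10.93 in MEKi 1 and 11.20 in MEKi 2, against 11.53 in vehicle 1 and 10.67 in vehicle 2. Both were highest in vehicle 1. The differences were 0.03 for Clec4d (SE 0.61), 0.51 for Clec4e (SE 0.36), −0.40 for Clec4n (SE 0.33) and −0.03 for Clec7a (SE 0.37).

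The NADPH oxidase makes superoxide in the phagosome of macrophages and neutrophils. Cybb, its membrane subunit, read 10.89 in MEKi 1 and 10.25 in MEKi 2, against 10.95 in vehicle 1 and 10.47 in vehicle 2. Ncf4, a cytosolic subunit, read 10.28 in MEKi 1 and 9.62 in MEKi 2, against 10.01 in vehicle 1 and 10.29 in vehicle 2. Both were lowest in MEKi 2, and they spanned 0.69 and 0.67. Of the other subunits, Cyba lay between 11.53 and 12.00, and Rac2, a GTPase abundant in all leukocytes, read 11.94 in MEKi 1 and 9.15 in MEKi 2, against 9.67 in vehicle 1 and 11.88 in vehicle 2.

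Setting each MEKi array against each vehicle array showed how far the differences depended on the array chosen. These comparisons share arrays and have no replicate. They also differ in kind. MEKi 1 and vehicle 2 had close B and T cell medians, as did MEKi 2 and vehicle 1. The other pairs set an array with high lymphoid genes against one with low lymphoid genes. Between MEKi 1 and vehicle 1, 21 of 41 genes were lower by more than 1 log2 unit (8.74% of 17097 genes) and 2 were higher (6.67%), with a median of −1.01. Between MEKi 1 and vehicle 2, 8 were lower (0.831%) and 2 higher (0.287%), with a median of −0.30. Between MEKi 2 and vehicle 1, 12 were lower (4.34%) and 2 higher (2.26%), with a median of −0.61. Between MEKi 2 and vehicle 2, 6 were lower (9.15%) and 4 higher (8.25%), with a median of 0.02. Cd163, Clec10a and Retnla are examples of genes lower in both MEKi arrays. For Cd163 the 4 differences were −2.80 (MEKi 1 minus vehicle 1), −2.10 (MEKi 1 minus vehicle 2), −1.81 (MEKi 2 minus vehicle 1) and −1.11 (MEKi 2 minus vehicle 2). Msr1 had −2.72 (MEKi 1 minus vehicle 1), −1.27 (MEKi 1 minus vehicle 2), −0.35 (MEKi 2 minus vehicle 1) and 1.10 (MEKi 2 minus vehicle 2), so its last pair ran the other way.

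Further macrophage genes, from a list that shares no gene with the 41, had a median difference that rested largely on vehicle 1, as the median of the 41 did. Of 22 listed, 21 were measured, and 20 had a difference below 0 (47.8% of all genes) and 1 above. By limma 0 were called and 0 reached an unadjusted p under 0.05. Without vehicle 1, 13 were below 0 and 8 above. Their median difference was −0.41, but −0.04 without vehicle 1 and −0.69 without vehicle 2. For the 41 genes it was −0.43, but −0.09 without vehicle 1. Both MEKi arrays lay below both vehicle arrays in 5 of 21 (10.2% of all genes), namely Ccr2, Ctss, Spi1, Lpl and Tgfbi, which were named after their values were seen. Ccr2, the receptor by which inflammatory monocytes leave the bone marrow, read 8.25 in MEKi 1 and 7.51 in MEKi 2, against 9.20 in vehicle 1 and 8.49 in vehicle 2. Csf1r, the receptor for the main macrophage growth factor, read 9.56 in MEKi 1 and 10.41 in MEKi 2, against 10.76 in vehicle 1 and 9.94 in vehicle 2, so its labels overlapped. Of 7 measured genes that act below ITAM receptors and lectins, 7 were lowest in MEKi 2 and 0 were called. Their median was 10.17 in MEKi 1 and 9.02 in MEKi 2, against 9.71 in vehicle 1 and 10.05 in vehicle 2, and lymphocytes express many of them. The share of all genes lowest in MEKi 2 was not counted.

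Of 11 measured neutrophil genes, 9 had a difference above 0 and 2 below (47.8% of all genes were below 0). In both MEKi arrays, 5 were higher (11% of all genes) and 1 lower (10.2%). By limma 0 were called and 4 reached an unadjusted p under 0.05 (0.901% of all probe sets). Without vehicle 2, 6 had a difference above 0. S100a8, a calcium-binding protein of neutrophils and inflammatory monocytes, read 9.99 in MEKi 1 and 11.10 in MEKi 2, against 6.17 in vehicle 1 and 7.70 in vehicle 2, a difference of 3.61 (SE 0.71, adjusted p = 1 by limma). Neutrophils can also carry Arg1, Cybb, Ncf4 and Clec4d. For 6 dendritic cell genes the median was 7.83 in MEKi 1 and 6.78 in MEKi 2, against 6.89 in vehicle 1 and 8.05 in vehicle 2. Which cells carried the shared genes was not tested.

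**Figure D3:**
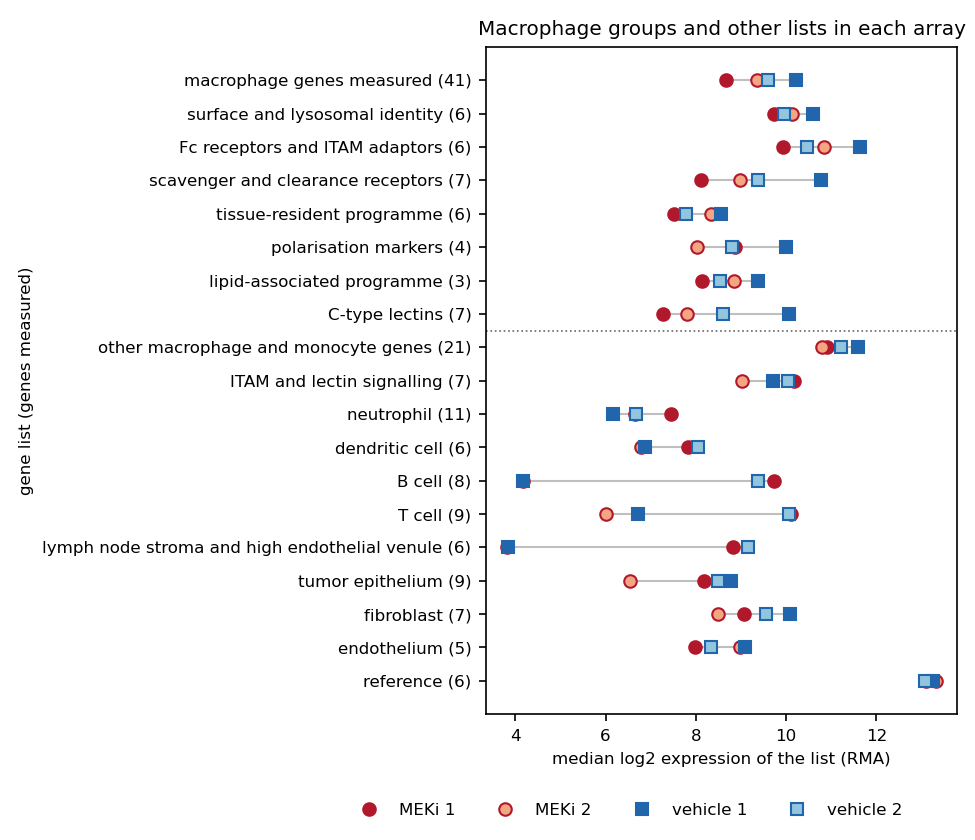
Median log2 expression (RMA, horizontal axis) of macrophage gene groups (above the dotted line) and of other gene lists (below it) on the 4 arrays. Parentheses give how many genes were measured. MEKi arrays are circles and vehicle arrays squares, as labelled. The 41 macrophage genes lie between 8.68 (MEKi 1) and 10.22 (vehicle 1), whereas B cell genes lie at 9.73 (MEKi 1) and 4.18 (MEKi 2), against 4.17 (vehicle 1) and 9.39 (vehicle 2).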

How the data were processed

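Bulk tumor RNA was hybridized to Affymetrix MG-430PM arrays, and the values deposited by the authors are log2 intensities per probe set. Their processing notes name RMA, and the methods describe quantile normalization with the AFFY package in R. No filter or pooling is stated, and scanner files were not used here. The number of arrays limits how precise any value is. Values under the 25th percentile of an array (3.85 to 3.88) were taken as near the floor.

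After 104 control probe sets were removed from 45141, the remaining 45037 were tested. The platform annotation gives a single symbol for 28898, several for 551 and none here for 15588. All 41 measured genes could be named, by the rule that takes every listed gene. For 6 of them (Aif1, Lyz2, Fcgr2b, Trem2, Clec4d and Clec4n) the probe set suffix, s or x, marks probes shared with other transcripts. Labels were compared with lmFit and eBayes of limma 3.58.1 (R 4.3.3), without a block, at the thresholds of the study, and the fit was tested on simulated data. That test required calls only for a large change at a spread far below that of these arrays. It does not show how many true changes the fit would call here. Alternatives covered a stricter adjusted p of 0.05, an intensity trend, removal of dim probe sets, centring, a replicate block, omission of single arrays and other probe set choices. The genes, lists, motifs and tests were chosen with earlier results of these data known. Python 3.11.15, numpy 2.4.6, pandas 2.3.3 and matplotlib 3.10.9 made tables and figures.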

Additional observations from a re-analysis of the deposited data

How the results depend on the processing

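The number of calls stayed at 0, for the 41 genes and for all 45037 probe sets, under an adjusted p under 0.05, an intensity trend, leaving out the dimmest probe sets, centring on reference genes, 1 probe set a gene and each array left out. With the replicate block (arrays of the same number taken as a pair) it was 0 too, and the median difference was −0.43 as without it. The labels do not say that numbers pair arrays, and same-numbered arrays deviated from their group means in opposite directions (r = −0.764). With the pairing crossed, an alternative chosen after seeing the data, 0 probe sets and 0 of the 41 genes were called.

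Centring on reference genes gave 20 genes lower in both MEKi arrays in place of 15. The mean of all probe sets gave 1 gene higher in both MEKi arrays (Clec4e) in place of 0, and a median of 8.85 in MEKi 2 in place of 9.35. Leaving out single arrays, also chosen after seeing the data, gave 17 to 33 lower genes and 1 to 8 higher genes. In the 15 genes whose labels do not overlap, leaving out an array cannot turn the sign. Of the other 26, the sign turned in 18. Those ranges were −0.999 to 0.0039 for Cd68, −0.84 to 0.28 for Cd14, −0.66 to 0.079 for Aif1, −1.69 to 0.035 for Fcgr1, −1.04 to 0.17 for Fcer1g, −1.99 to 0.37 for Msr1, −0.58 to 1.53 for Marco, −0.013 to 0.66 for Mertk and −0.86 to 0.99 for Timd4. They were −1.22 to 2.15 for Vsig4, −0.36 to 0.15 for Siglec1, −0.10 to 0.075 for Nos2, −0.45 to 1.04 for Chil3, −0.48 to 0.40 for Gpnmb, −0.56 to 0.62 for Clec4d, −0.46 to 0.40 for Clec7a, −0.45 to 0.18 for Cybb and −0.53 to 0.12 for Ncf4. Clec4d also turned to −0.014 when centred on reference genes. Where 1 array of a label was left, it was assumed to vary like those of the other label. The causes were not tested.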
